A study of Mus musculus with 6 samples.

Results

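The genes described here are 10 genes of cystine uptake, glutathione synthesis, glutathione reduction and peroxide removal (Slc7a11, Slc3a2, Gclc, Gclm, Gss, Gsr, Gpx1, Gpx4, Gpx7 and Gpx8) in immortalized mouse embryonic fibroblasts (MEFs). They were chosen by their known roles from the 26231 genes of the deposited table, and 10 of 10 passed a filter of at least 1 RPKM (reads scaled to exon length and to library size) in at least 3 libraries, as did 11067 genes in all. The cells were fibroblasts of FVB embryos aged approximately 14 days by the labels, with Nf2 alleles flanked by loxP sites, immortalized with SV40 large T antigen and transduced with a lentivirus that carried Cre recombinase (labelled MEF Nf2 KO, 3 libraries) or no Cre (labelled MEF WT (control), 3 libraries). Both lines therefore carried floxed alleles, large T antigen and a lentiviral vector, each genotype was 1 transduced line, and all cells were grown in DMEM with 10% FBS and then kept in serum-free medium for 24 h before RNA was taken. Nothing in the labels says that the libraries of a line came from separate cultures, so p-values measure only the spread between these samples, which may be technical.

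Glutathione is made from glutamate, cysteine and glycine, and cysteine supply usually limits its synthesis. Most cultured cells take up cystine through an exchanger made of the Slc7a11 and Slc3a2 proteins, the Gclc and Gclm subunits join glutamate to the cysteine derived from it, and Gss adds glycine. Glutathione peroxidases then use glutathione to remove hydroperoxides, and Gsr returns the oxidized form to the reduced form with NADPH. Gclc, Gclm and Slc7a11 are textbook targets of the stress-responsive factor NRF2, and Slc7a11 is also a target of ATF4, the factor of the amino acid and unfolded protein responses.

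The promoter windows of 8 of the 10 genes were read from RefSeq (GRCm38.p6, 250 bases before to 50 after each start site), and Gclc and Gsr had no window there. Both strands were searched for TGACNNNGC, the core letters of the antioxidant response element bound by NRF2, and for TGATGNAA, the letters of the element bound by ATF4 with C/EBP factors. The first occurred in 12.4% of all 32851 windows and the second in 3.97%. The following 150 bases before the start site are shown because Slc7a11 and Gclm were the only genes among these 8 with a match, with the matched letters in capitals and each strand read 5′ to 3′ in the direction of the gene.
Slc7a11 promoter (chr3:50443614-50443763, minus strand): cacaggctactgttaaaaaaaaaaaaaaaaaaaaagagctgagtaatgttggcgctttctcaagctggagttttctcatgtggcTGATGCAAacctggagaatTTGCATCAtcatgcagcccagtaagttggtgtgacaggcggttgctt
Gclm promoter (chr3:122245407-122245556, plus strand): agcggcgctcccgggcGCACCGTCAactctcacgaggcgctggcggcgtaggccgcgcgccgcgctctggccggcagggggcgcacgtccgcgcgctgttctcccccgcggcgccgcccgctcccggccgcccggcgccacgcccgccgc
The Slc7a11 stretch held TGATGCAA on both strands, starting 66 and 47 bases before the start site, and 0.07% of all windows held 2 or more such matches. The Gclm stretch held TGACGGTGC on the opposite strand, starting 134 bases before the start site. The windows of Slc3a2, Gss, Gpx1, Gpx4, Gpx7 and Gpx8 held no match to either, and a match is a description of letters, not evidence of binding.

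The libraries held 13462402 to 73093044 reads, worked out from the steps between low values, and the replicate 3 libraries of both lines, marked 2018 in the labels, were the deepest. The replicate 2 libraries, marked B, stood apart from the other 4 on the first principal component (50.3% of the variance), and the lines separated on the second (32.8%). Nf2 itself was at 14.3, 13.7 and 13.1 RPKM in the MEF WT libraries and at 15.4, 12.9 and 13.9 RPKM in the KO-labelled ones (log2 difference 0.03 ± 0.10 SE, adjusted p = 0.987). Gene-level RNA did not separate the lines at Nf2, and values over the part of the gene that Cre removes were not analysed here. Of 13 fibroblast markers, Vim was the highest (mean 734 RPKM), Lum and Fap stayed under 1 RPKM in every library, and Dcn was at or under 0.133 RPKM in the KO-labelled libraries. Of the macrophage markers 10 of 12 stayed under 1 RPKM in every library (Cd68 was the highest, at a mean of 6.71 RPKM), as did 6 of 7 of endothelium (Kdr the highest at 2.36 RPKM), 5 of 6 of skeletal muscle (Acta1 at 1.78 RPKM) and 7 of 8 of epithelium, whose Krt19 averaged 24.0 RPKM.

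Levels of the 10 genes, which are per exon length, spanned about 2 orders of magnitude, from the peroxidase Gpx4 at the top to Slc7a11 at the bottom. The length inferred is that of all annotated exons together, 13922 bases for Slc7a11 and 1048 for Gpx8. A gene whose transcripts use only part of that length reads too low. The order and ratios between genes are therefore approximate. Over the 6 libraries Gpx4 averaged 136 ± 16.6 RPKM (SD), Gpx1 113 ± 13.8, Gpx8 53.0 ± 7.78, Slc3a2 40.5 ± 5.81 and Gsr 26.3 ± 5.11. Below them came Gss at 15.7 ± 2.71, Gclc at 12.6 ± 1.65, Gclm at 11.5 ± 1.25, Gpx7 at 1.37 ± 0.823 and Slc7a11 at 1.16 ± 0.260 RPKM. The ranges of neighbours overlapped for Gpx4 and Gpx1, Gpx8 and Slc3a2, Gss and Gclc, Gclc and Gclm, and Gpx7 and Slc7a11. Gpx8 was nevertheless above Slc3a2 within each of 6 libraries, while Gpx4 was above Gpx1 in 5 of 6 and Gpx7 above Slc7a11 in 2 of 6. Slc3a2, which also pairs with other amino acid carriers, was 23.6 to 48.0 times the level of its partner Slc7a11. The catalytic subunit Gclc and the modifier subunit Gclm stayed close to equal, with a ratio of 0.833 to 1.24.

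**Figure D1:**
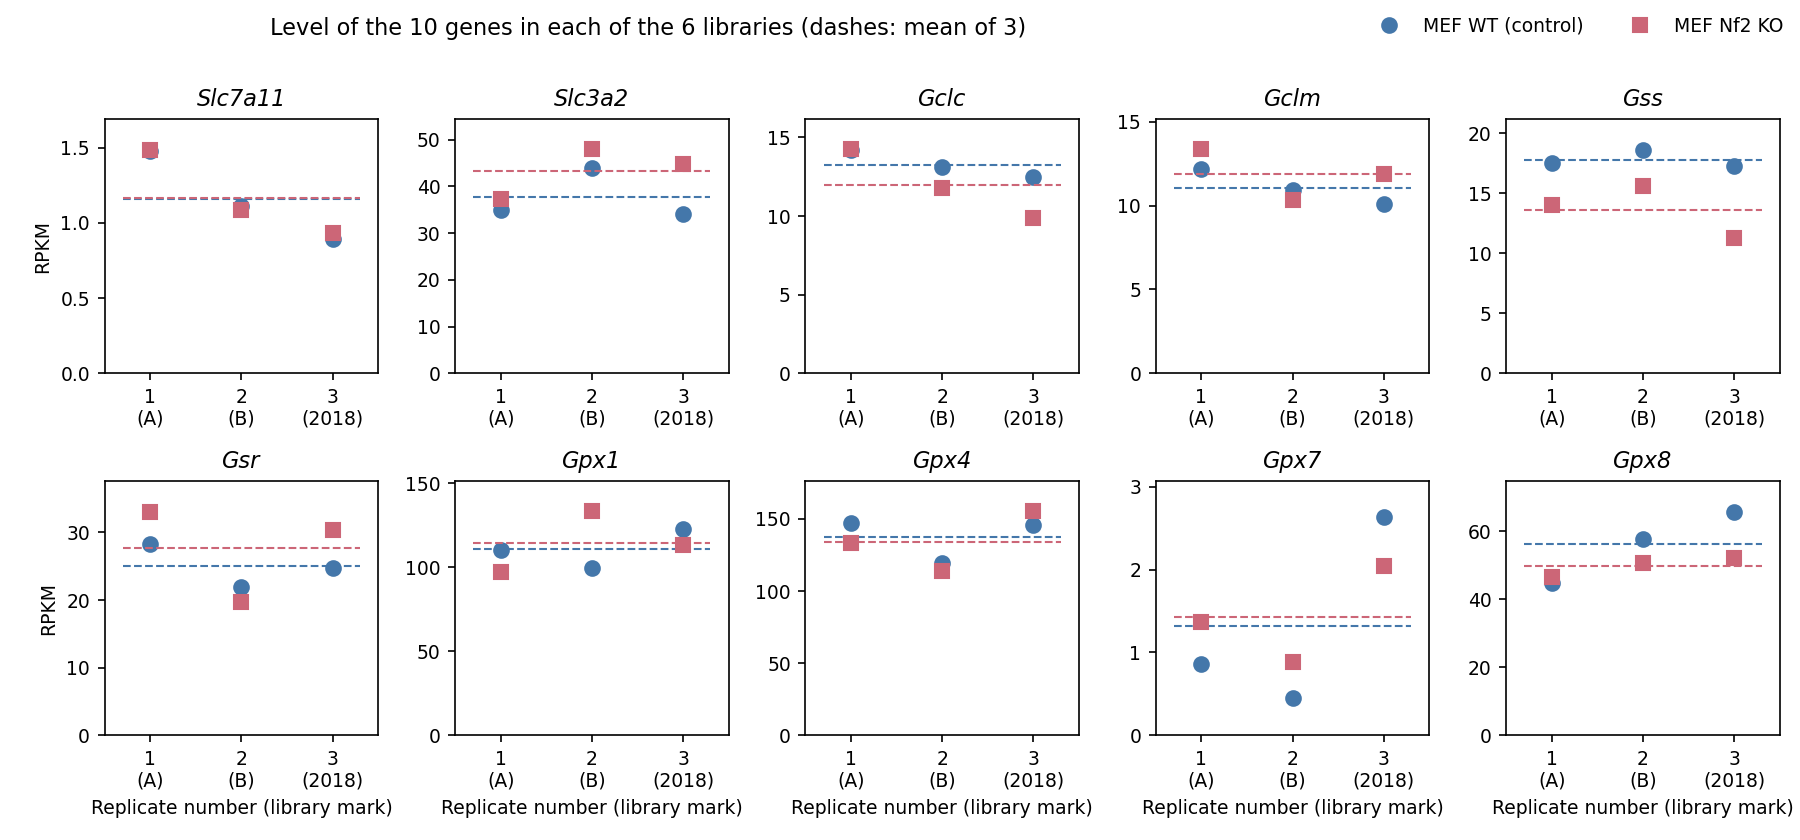
RPKM of each gene (vertical axis, linear, from 0) by replicate number and library mark (horizontal axis) in MEF WT libraries (blue circles) and libraries labelled MEF Nf2 KO (red squares), with dashes at the mean of 3. The lines are separate only for Gss, the Slc7a11 points of the lines lie on top of each other at every replicate number, and replicate 2 is lowest in both lines for Gsr, Gpx4 and Gpx7.

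The first comparison asked whether these genes differed between the lines, and none of the 10 passed the threshold (adjusted p under 0.05, limma on log2(RPKM + 1)), beside 1.06% of all genes tested (117 of 11067). Their log2 differences ran from -0.37 to 0.20 with a median of 0.02, beside -0.01 over all genes, and 6 were higher and 4 lower in the KO-labelled libraries. The smallest difference called for any gene in this fit was 0.57 in size. Differences as small as those of the 10 genes were therefore not called for any gene. At an unadjusted p under 0.05 there was 1 of 10, Gss, beside 1097 of the 11067 genes. With the replicate number as a block, 0 of the 10 passed, beside 7.53% of all genes. In that fit 1 of 10 was again at an unadjusted p under 0.05, beside 2563 of the 11067 genes.

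Slc7a11 (chr3:49892526-50443614 in GRCm38), the cystine-glutamate exchanger itself, was at 1.48, 1.11 and 0.890 RPKM in MEF WT replicates 1, 2 and 3 and at 1.48, 1.08 and 0.931 RPKM in the KO-labelled replicates. Both lines had the same order of replicate numbers. Same-numbered libraries lay within 0.03 of each other on the log2(RPKM + 1) scale, although the highest library was 1.66 times the lowest. Slc7a11 fell in the order in which depth rose within each line. Depths were 13462402, 18964924 and 61238730 reads in MEF WT and 18088654, 19288130 and 73093044 reads in the KO-labelled libraries. KO-labelled replicate 1 and MEF WT replicate 2 were near in depth but at 1.48 and 1.11 RPKM. The part of depth in the Slc7a11 values was not tested. The line difference was 0.00 (SE 0.15, 95% interval -0.36 to 0.37, adjusted p = 0.998) on 277 to 947 reads per library. With the replicate number as a block the SE was 0.08 and the 95% interval -0.19 to 0.20. Slc3a2 (chr19:8706882-8723369), its heavy chain, was at 34.9, 44.0 and 34.0 RPKM in MEF WT and 37.3, 47.9 and 44.7 RPKM in the KO-labelled libraries. The KO-labelled library was the higher at each replicate number, but the groups overlapped and the difference of 0.20 ± 0.14 (SE) did not pass (adjusted p = 0.821).

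Both subunits of glutamate-cysteine ligase, the first and usually limiting enzyme of glutathione synthesis, overlapped between the lines. Gclc (chr9:77754535-77794485) was at 14.2, 13.1 and 12.5 RPKM in MEF WT and 14.2, 11.8 and 9.88 RPKM in the KO-labelled libraries, a log2 difference of -0.15 (SE 0.14, 95% interval -0.48 to 0.18, adjusted p = 0.899). Gclm (chr3:122245557-122270732) was at 12.2, 10.9 and 10.1 RPKM in MEF WT and 13.4, 10.3 and 11.9 RPKM in the KO-labelled libraries, a difference of 0.09 (SE 0.12, 95% interval -0.20 to 0.38, adjusted p = 0.951). Replicate 1 was the highest library of its line for both genes, and the estimates for the subunits had opposite signs, each with an interval that included 0.

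Gss (chr2:155563181-155592810), glutathione synthetase, was the only one of the 10 genes whose libraries did not overlap between the lines, beside 15.1% of all genes tested. It was at 17.6, 18.6 and 17.3 RPKM in MEF WT (mean 17.8 ± 0.683 SD, n = 3) and at 14.0, 15.6 and 11.3 RPKM in the KO-labelled libraries (13.6 ± 2.18, n = 3), a mean 23.5% lower. The log2 difference of -0.37 (SE 0.13, 95% interval -0.67 to -0.07) did not pass after adjustment over all genes (adjusted p = 0.350), nor with the replicate block (adjusted p = 0.0598). Exons of Gss overlap those of Acss2 and the antisense genes Gssos1 and Gssos2. Whether counting used the strand is not given in the sources used here. Acss2 was at 0.908 to 4.66 RPKM with a line difference of -0.04 (adjusted p = 0.997). Both antisense genes stayed at or under 0.207 RPKM. The summed level of the fibroblast markers was also lower in the KO-labelled libraries (1428 to 2001 RPKM, against 2034 to 2835 in MEF WT), with Pdgfra, Dcn and S100a4 past the threshold of 11 tested, and its part in the Gss values was not tested. These marker calls numbered 0 with no filter and 0 to 5 with libraries left out (0 without MEF WT replicate 1 or 3 or KO-labelled replicate 1 or 2), and 6 with the replicate block, 5 lower and Twist1 higher. In such bulk libraries fewer cells of a type and less RNA per cell cannot be told apart.

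Gsr (chr8:33652523-33698163), glutathione reductase, was at 28.3, 21.9 and 24.8 RPKM in MEF WT and 33.0, 19.7 and 30.4 RPKM in the KO-labelled libraries. The groups overlapped, with the KO-labelled libraries holding both the highest and the lowest value, and the difference was 0.11 ± 0.21 (SE, adjusted p = 0.973).

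The glutathione peroxidases did not separate the lines either. Gpx1 (chr9:108338903-108340343), the abundant selenoenzyme of cytosol and mitochondria, was at 110.5, 99.6 and 122.5 RPKM in MEF WT and 97.1, 133 and 113 RPKM in the KO-labelled libraries (log2 difference 0.04 ± 0.15 SE, adjusted p = 0.993). Gpx4 (chr10:80047166-80056439), the selenoenzyme that reduces lipid hydroperoxides in membranes, was at 147, 119 and 146 RPKM in MEF WT and 133, 114 and 156 RPKM in the KO-labelled libraries (-0.04 ± 0.15 SE, adjusted p = 0.993). Of the 31-base stretches of Gpx4, 38.9% also occur in other genes, most in the pseudogene Gpx4-ps2, which was listed at 0.279 to 0.831 RPKM, so that the split of shared reads is uncertain.

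Gpx7 and Gpx8 are peroxidases of the endoplasmic reticulum that lack selenium, and they differed from each other by 25.0 to 129 times in level. Gpx8 (chr13:113042753-113046410) was at 44.8, 57.9 and 65.8 RPKM in MEF WT and 46.6, 50.7 and 52.1 RPKM in the KO-labelled libraries (-0.15 ± 0.15 SE, adjusted p = 0.908). Gpx7 (chr4:108400390-108406961) was at 0.864, 0.450 and 2.64 RPKM in MEF WT and 1.37, 0.885 and 2.04 RPKM in the KO-labelled libraries (0.16 ± 0.36 SE, 95% interval -0.70 to 1.01, adjusted p = 0.981). The Gpx7 values rested on 15, 11 and 208 reads in MEF WT and 32, 22 and 192 in the KO-labelled libraries, and its exact Poisson intervals, which cover counting error only, were 0.225 to 0.805 RPKM in the lowest library and 2.29 to 3.02 RPKM in the highest. Gpx7 was highest in the replicate 3 library of each line, and these were also the deepest libraries; the part of depth was not tested.

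**Figure D2:**
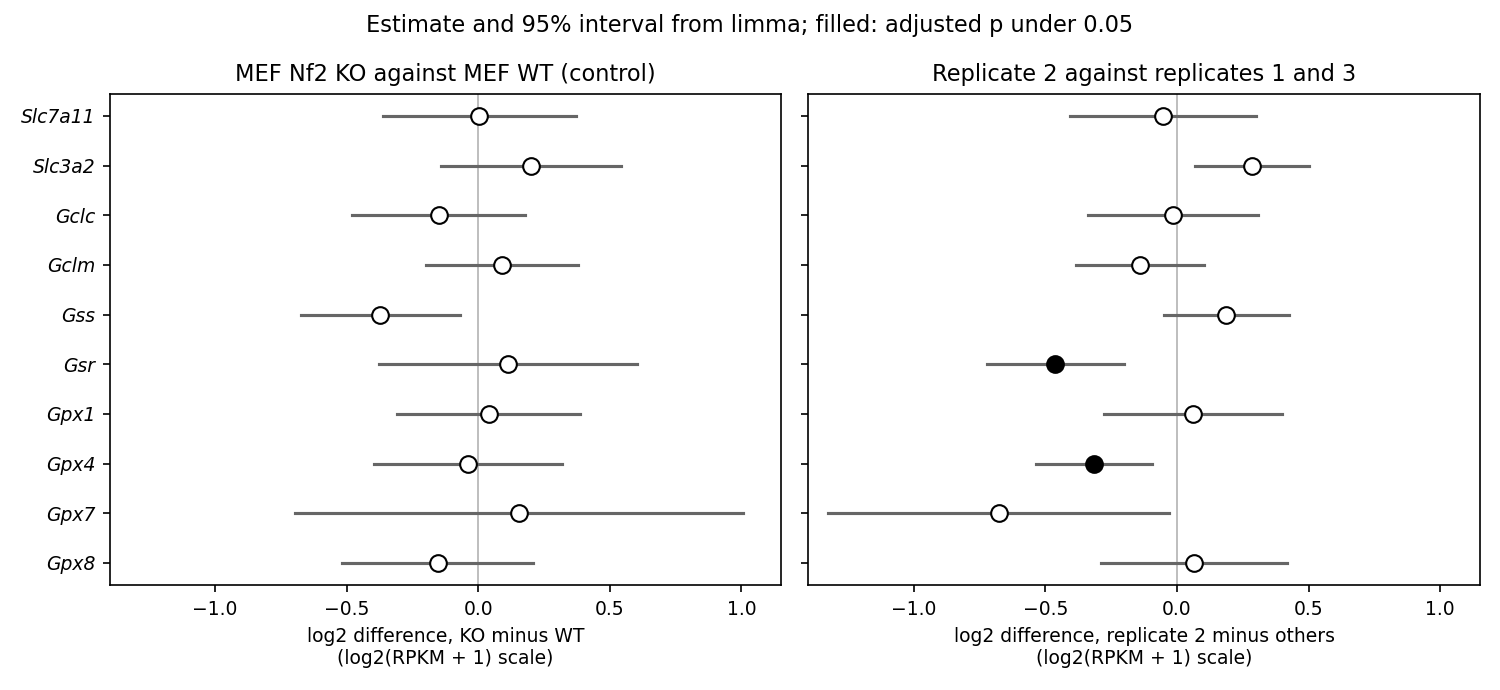
Estimated log2 difference (points, horizontal axis, log2(RPKM + 1) scale) with its 95% interval (bars) for each gene, KO-labelled minus MEF WT on the left and replicate 2 minus replicates 1 and 3 on the right. Filled points are past an adjusted p of 0.05, which on the left none is and on the right Gsr and Gpx4 are.

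The second comparison set the replicate 2 libraries of both lines against the other 4, with the line as a covariate, because replicate 2 stood apart over all genes. As this split was known from the same data, many calls were to be had from it. The p-values of this comparison, here and below, are therefore descriptive only. What the mark B stands for is not given in the labels, so this comparison describes libraries, not a treatment. Of the 10 genes, 2 passed and both were lower in replicate 2, beside 30.6% of all genes tested (19.8% lower and 10.8% higher). The median of the 10 was -0.03, beside -0.08 over all genes. The libraries did not overlap for 2 of the 10, beside 46.6% of all genes.

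Gsr averaged 20.8 RPKM in the replicate 2 libraries and 29.1 ± 3.44 RPKM (SD, n = 4) in the others, with both replicate 2 libraries below all 4. Its log2 difference was -0.46 (SE 0.11, 95% interval -0.72 to -0.20, adjusted p = 0.0207). The call was lost without KO-labelled replicate 2 (-0.27, adjusted p = 0.263), without replicate 1 of both lines (adjusted p = 0.0887) and with no filter (adjusted p = 0.106). Gpx4 averaged 117 RPKM in replicate 2 and 146 ± 9.13 RPKM (SD, n = 4) in the others, again without overlap. Its difference was -0.31 (SE 0.09, 95% interval -0.54 to -0.09, adjusted p = 0.0417), and this call was lost under median centring (-0.24, adjusted p = 0.113), without the line covariate (adjusted p = 0.0542), with no filter (adjusted p = 0.119) and without any one of MEF WT replicates 1, 2 and 3 or KO-labelled replicates 2 and 3, or of replicate 3 of both lines (adjusted p = 0.0584 to 0.281). The summed fibroblast markers were at 1428 and 2034 RPKM in replicate 2, the lowest library of each line, with 6 of 11 past the threshold and lower, among them Col3a1, Pdgfrb and Col1a2, beside 19.8% of all genes. The 6 became 4 with either replicate 2 library left out and 3 with no filter, while Vim (0.11) and Thy1 (0.48, adjusted p = 0.0580), the latter highest in replicate 2 in both lines, went the other way without passing. The part of these markers in the Gsr and Gpx4 values was not tested.

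Slc3a2 was the member nearest the threshold on the other side. It averaged 46.0 RPKM in replicate 2 and 37.7 ± 4.85 RPKM in the others, the highest library of each line being replicate 2, and its difference of 0.29 ± 0.09 (SE) had an adjusted p of 0.0542. It passed with quantile normalization (adjusted p = 0.0483), median centring (0.0355), a filter of 5 RPKM (0.0491) and voom (0.0406), and without KO-labelled replicate 3 (0.0185) or replicate 3 of both lines (0.0436), which makes 6 of 16 alternatives. In the other 10 it did not, with a difference as low as 0.23 and an adjusted p of up to 0.36. Gpx7 was lowest in replicate 2 in both lines (-0.68 ± 0.27 SE, adjusted p = 0.102), and it passed when MEF WT replicate 1 (adjusted p = 0.0422) or replicate 1 of both lines (0.0285) was left out. Without replicate 3 of both lines the Gpx7 difference shrank to -0.35 (adjusted p = 0.0852). It was -0.45 without MEF WT replicate 3, and without MEF WT replicate 2 its adjusted p was 0.468. With a pseudocount of 0.1 it was -1.21 and with voom -1.50, neither past the threshold. The counting intervals of Gpx7 in replicates 1 and 2 overlapped in both lines (0.484 to 1.43 and 0.225 to 0.805 RPKM in MEF WT, 0.939 to 1.94 and 0.555 to 1.34 RPKM in the KO-labelled libraries). Gclm (-0.14, adjusted p = 0.333), Gss (0.19, adjusted p = 0.195), Gpx8 (0.06), Gclc (-0.02), Slc7a11 (-0.05) and Gpx1 (0.06) did not pass, and for the last 3 the sign turned with another scaling.

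Gpx1 was the gene whose replicate 2 libraries went opposite ways in the lines. Replicate 2 was the lowest MEF WT library (99.6 RPKM) and the highest KO-labelled library (133 RPKM). The interaction of line and replicate 2 was 0.57 (SE 0.23, 95% interval 0.03 to 1.11) and did not pass (adjusted p = 1.00). With limma, 0 of the 10 genes and 0 of all genes passed this test (1 and 313 at an unadjusted p under 0.05).

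The spread of the 10 genes over the libraries lay more between the 3 replicate numbers than between the 2 lines. These are raw shares, not divided by degrees of freedom, of which the line has fewer than the replicate number or the rest. Values without any structure would therefore also give the line the smallest share on average. Of the sum of squares of log2(RPKM + 1), the replicate number held the most for 8 genes, the line for Gss (66.8%) and neither for Gpx1 (72.5% in the rest). Slc7a11 was the extreme, with 99.6% between replicate numbers and 0.4% in the rest, followed by Gpx4 (89.6%), Gpx7 (86.3%) and Gsr (80.9%). Depth rose with the replicate number in each line, and its part in these shares was not tested. With rising depth Slc7a11 and Gclc fell and Gpx8 rose at each step in both lines. Over all genes tested the medians were 64.0% for the replicate number, 13.6% for the line and 11% for the rest.

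**Figure D3:**
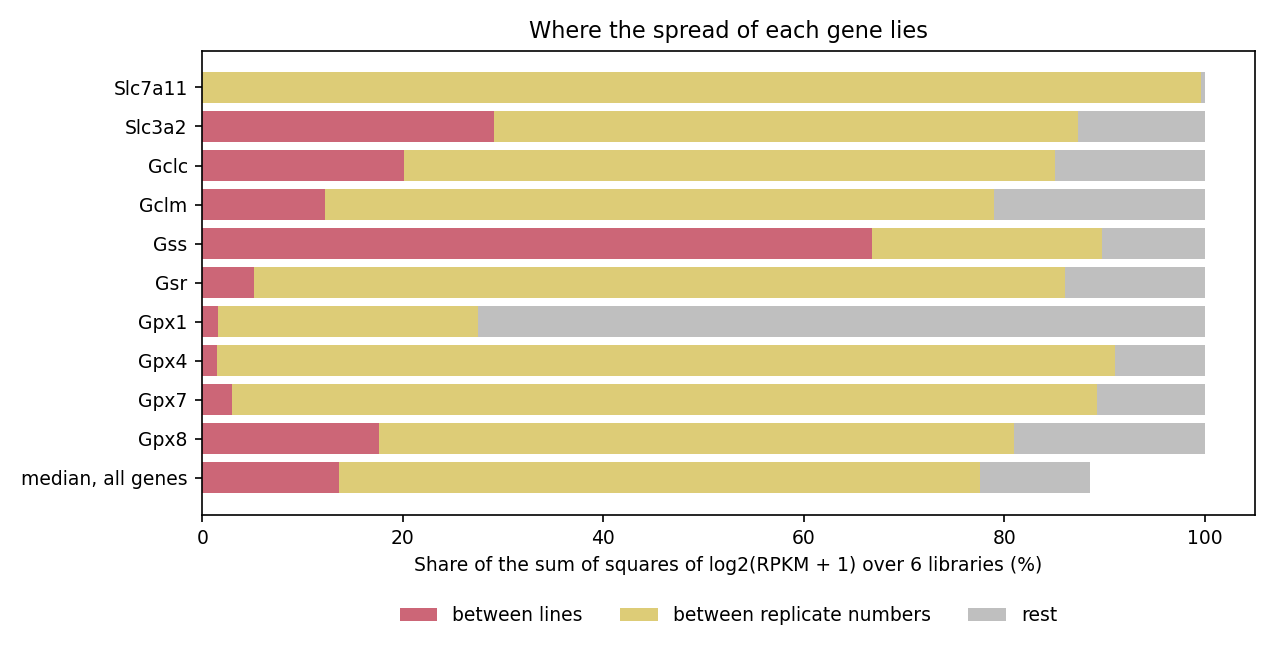
Share of each gene's sum of squares over the 6 libraries (horizontal axis, percent) that lies between the lines (red), between replicate numbers (yellow) and in the rest (grey), with the medians over all genes in the bottom bar, which need not add to 100. The replicate number fills 99.6% of the Slc7a11 bar, and Gss is the gene with most of its bar between the lines.

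The genes most like Slc7a11 across the 6 libraries, by Pearson correlation of log2(RPKM + 1) among the 7024 other genes averaging 5 RPKM or more, were the kinase Mark2 (0.981), the acetyltransferase Ep300 (0.977) and Khdc4 (0.972). For Gclm they were the oxysterol-binding protein gene Osbp (0.993), Tpra1 (0.976) and Ldb1 (0.972), and for Gclc they were Nsmf (0.964), Habp4 (0.964) and Mob1b (0.957). Among the 45 pairs of the 10 genes, 7 had a Pearson correlation of at least 0.7 in size. Positive ones were Gclm with Gsr (0.85), Slc7a11 with Gclc (0.78) and Gclm (0.75), and Gsr with Gpx4 (0.74). Negative ones were Gpx8 with Slc7a11 (-0.81) and Gclm (-0.76), and Gclm with Gpx1 (-0.71). These are descriptions over 6 libraries that share their lines and replicate numbers. Depth also followed the replicate number in each line, and its part in these correlations was not tested.

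Genes around the pathway were described by lists of known roles, and in the line comparison 0 genes of any of these lists passed (each list's median log2 difference lay between -0.53 and 0.09). In the glutathione breakdown list 1 gene passed with quantile normalization, with voom and without replicate 2 of both lines. Without replicate 2, so did 1 gene each of the NRF2 and ATF4 lists. With the replicate block, single members passed in the lists of glutathione breakdown (Cndp2, a dipeptidase that cleaves cysteinylglycine, at 42.7, 41.2 and 39.6 RPKM in MEF WT and 22.6, 28.7 and 26.7 RPKM in the KO-labelled libraries, adjusted p = 0.0181, against 0.0563 without the block) and of export (Abcc1). The NRF2 list then had 1 higher (Mafk) and 2 lower (Nqo1 and Abcc1) of 21, and the ATF4 list 1 higher (Eif2ak4) and 2 lower (Cebpb and Atf5) of 22, beside the 7.53% of all genes called in that fit. Of the other glutathione peroxidases only Gpx3, the secreted form, was expressed enough to be tested, at 1.44 to 4.24 RPKM, and it did not pass (-0.53, adjusted p = 0.417).

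The lists were then compared between replicate 2 and the other libraries, where 10.8% of all genes tested were higher and 19.8% lower, and no test of a list was made. Of the 36 genes named from the lists in this comparison, markers included, 25 lost their call without KO-labelled replicate 2, 21 without MEF WT replicate 2 and 23 with no filter. The 8 that kept it under every alternative that gave a value were Maff, Mafk, Idh1, Ddit4, Kdr, Col1a2, Col3a1 and Pdgfrb. In cysteine and glutamate supply 3 of 9 genes were higher, among them Mat2a (0.51), which makes S-adenosylmethionine, and Glud1 (0.34), and Aldh18a1 (-0.34) was lower. Slc7a5, a light chain that shares Slc3a2, was the only one of 6 other light chains and neutral carriers past the threshold (0.55 ± 0.14 SE, adjusted p = 0.0251), with replicate 2 at 48.0 and 70.4 RPKM against 32.7 to 55.7 RPKM elsewhere, so that the libraries overlapped. Of 11 glutaredoxin and thioredoxin genes, the thioredoxin reductases Txnrd3 (0.53) and Txnrd1 (0.47) were higher and none was lower. With libraries left out, Txnrd1 ranged from 0.26 to 0.69 and Glud1 from 0.20 to 0.47. Of 7 export and import genes the transporters Abcc1 (0.48) and Abcc4 (0.48) were higher and Slc25a11 (-0.31) lower, and of 6 breakdown genes Ggct (0.33) was higher and Anpep (-1.42) and Chac2 (-0.36) lower.

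Of 10 lipid peroxidation and ferroptosis genes 5 were lower and none higher, led by the ferritin subunits Ftl1 (-0.86 ± 0.11 SE) and Fth1 (-0.74 ± 0.12 SE) and by Lpcat3 (-0.70), which loads polyunsaturated fatty acids into phospholipids. The 5 calls became 1 without MEF WT replicate 2 and 0 without KO-labelled replicate 2. Ftl1 was at 815 and 584 RPKM in replicate 2 against 1034 to 1524 RPKM in the others. In endoplasmic reticulum folding 3 of 12 were lower (25.0%, near the share of all genes), Pdia4 (-0.60), Hspa5 (-0.50) and Calr (-0.48), and the oxidase gene Ero1l (0.38) was higher. In selenoprotein synthesis 2 of 9 were lower (22.2%, also near that share), Selenop (-0.73) and Scly (-0.59), and Sephs2 (0.27) was higher.

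The regulator lists showed both directions. Of 21 NRF2 regulators and targets outside glutathione, 5 were higher, led by the small Maf genes Maff (1.57 ± 0.10 SE, adjusted p = 0.000618) and Mafk (1.10 ± 0.11 SE), and 10 were lower, led by the NADPH-producing enzyme Idh1 (-1.74 ± 0.12 SE), Hmox1 (-0.54) and Pgd (-0.54). Maff was at 26.4 and 30.8 RPKM in replicate 2 against 6.92 to 11.7 RPKM in the others, and Idh1 at 12.7 and 11.3 RPKM against 37.7 to 49.6 RPKM, both without overlap. Of 22 ATF4 regulators and targets, 9 were lower, led by Ddit4 (-1.25 ± 0.15 SE), Trib3 (-0.92) and Atf5 (-0.90), and Atf3 (0.79) was higher. With either of the replicate 2 libraries left out, 4 calls were counted in the NRF2 list and 3 in the ATF4 list. The promoters shown above for Slc7a11 and Gclm hold the letters of the ATF4 and NRF2 elements, and neither gene passed in either comparison. Of the 3 tested marker genes of macrophages and endothelium, Cd68 and Cd14 did not pass in this comparison (0.07 and -0.01). Kdr, an endothelial gene, was higher in replicate 2 (1.02 ± 0.11 SE, at 3.75 and 4.39 RPKM against 1.32 to 1.74 RPKM). The muscle gene Acta1, too low to be tested, was at 6.25 and 2.57 RPKM against 0.252 to 0.606 RPKM. The epithelial gene Krt19 was at 39.5 and 27.6 RPKM against 10.4 to 23.3 RPKM (0.82 ± 0.25 SE, adjusted p = 0.0506). Other markers of these types were under 1 RPKM in every library, among them Pecam1 (0.00423 RPKM on average in replicate 2 and 0.0214 in the others) and Epcam (0.0358 and 0.115), which define endothelium and epithelium. The part of these genes in the other values was not tested.

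**Figure D4:**
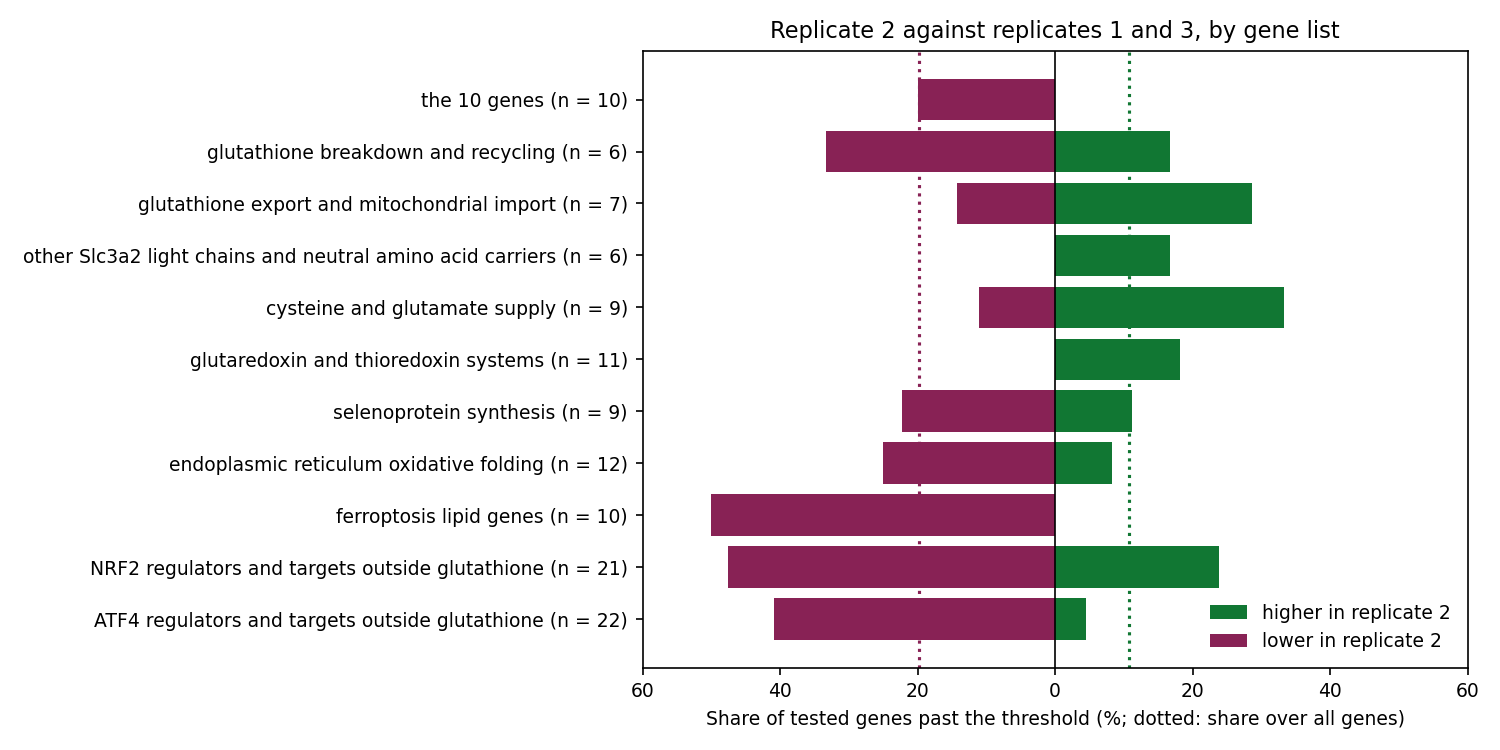
Share of the tested genes of each list past an adjusted p of 0.05 (horizontal axis, percent), higher in replicate 2 to the right (green) and lower to the left (purple), with dotted lines at the shares over all genes tested (10.8% and 19.8%). The 10 genes lie at the background for lower calls, and of the lists plotted, which leave out the cell type markers, the ferroptosis (50%), NRF2 (47.6%) and ATF4 (40.9%) lists reach farthest to the left.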

How the data were processed

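RNA of 6 libraries (3 per line) was sequenced. The authors deposited 1 table of normalized values, which are taken as RPKM: no source used here names the unit, the aligner or the counter, and the submitters' processing notes name the build mm10. In each library 85.9% to 87.4% of values of up to 20 reads were whole multiples of 1 read per exon length (GENCODE vM21, tolerance 0.1; an even spread would give 20%), which gave the depths, so unit and depths are inferences. Values were set to log2(RPKM + 1), which understates changes of low genes. The genes that reached 1 RPKM in 3 or more libraries were fitted with limma 3.58.1 in R 4.3.3 (trend and robust, two-sided) and adjusted over all genes by Benjamini-Hochberg, with a threshold of 0.05. Fits were the line alone, replicate 2 with the line as covariate, their interaction, and the line with the replicate number as a block. The method was tested on simulated data. Departures from the line mean correlated between libraries of the same number at 0.552, 0.819 and 0.516 for replicates 1, 2 and 3. That mean includes replicate 2, so its shift enters all 3 values. This hint from the data led to the fit with the number as a block. Line values given without a named alternative come from the fit of the line alone, which is unpaired. No libraries were duplicates.

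The 10 genes and the lists were chosen with earlier results of these data known. Named are the 10 genes, Nf2, up to 3 genes per list, direction and comparison past the threshold, the highest marker of each list, and the 3 genes most like Gclc, Gclm and Slc7a11. A gene that this rule names is not reported here. The list genes that passed only with the replicate block, Gpx3, Vim, Lum, Fap, Thy1, Twist1, Cd14, Pecam1 and Epcam were named after their values were seen. Promoter windows came from RefSeq, and figures were drawn with matplotlib 3.10.9. As alternatives, the replicate block, the 2018 mark as covariate, no line covariate, a pseudocount of 0.1, filters of none and 5 RPKM, median centring, quantile normalization, plain limma settings and the omission of libraries were tried, and also voom on recovered reads, chosen after seeing the data.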

Additional observations from a re-analysis of the deposited data

How the results depend on the processing

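None of the 10 genes passed in the line comparison under any alternative run, and none in the interaction. The count of all genes in the line comparison (117) became 9 with no filter, 63 with a filter of 5 RPKM, 62 with the 2018 mark as a covariate and 833 with the replicate block, which changed no call of the 10 genes. It ranged from 0 to 484 when libraries were left out: 0 without replicate 1 (578 at an unadjusted p under 0.05) or replicate 3 (556) of both lines, 484 without replicate 2, and 10 to 18 without MEF WT replicate 1 or 3 or KO-labelled replicate 1 or 3. In the replicate 2 comparison the count of all genes (3386) became 884 with no filter and 1976 without the line covariate, and ranged from 699 (without KO-labelled replicate 2; 832 without MEF WT replicate 2) to 3375. The count of the 10 genes (2) became 0 with no filter and 1 without the line covariate, ranged from 0 to 2 when libraries were left out, and was 3 with quantile normalization, a filter of 5 RPKM and voom. The cause was not tested.

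Signs turned for values within their errors. With libraries left out, the line difference ranged from -0.15 to 0.0721 for Gpx4, -0.10 to 0.11 for Slc7a11, -0.15 to 0.15 for Gpx1, -0.13 to 0.54 for Gpx7, -0.0239 to 0.33 for Gsr and -0.0301 to 0.0911 for Nf2. It kept its sign but moved by over 1.5 times for Gclc (-0.27 to -0.03), Gclm (0.0071 to 0.18), Gpx8 (-0.31 to -0.03) and Slc3a2 (0.11 to 0.31). The replicate 2 difference ranged from -0.18 to 0.15 for Gclc, -0.24 to 0.13 for Slc7a11, -0.22 to 0.35 for Gpx1 and -0.11 to 0.24 for Gpx8. For Gclm (-0.26 to -0.02) and Gss (0.09 to 0.29) it kept its sign. It was 0.0173 for Gclc, 0.133 for Slc7a11 and -0.00425 for Gpx1 with quantile normalization, 0.0562 and 0.0180 for Gclc and Slc7a11 with median centring, and 0.0152 and 0.0588 with voom. Gss stayed lower in the KO-labelled libraries under every alternative (-0.47 to -0.25). The count models edgeR and DESeq2 were not run, since the deposited values are RPKM and the recovered reads were not rounded to whole reads, and the filter of 5 RPKM leaves out Slc7a11 and Gpx7. Where an arm held 1 library, that library was assumed to vary like the others. Depth limits Gpx7 most, at 11 to 32 reads in replicates 1 and 2.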
